A study of Homo sapiens with 4 samples.

Results

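The interferon regulatory factors (IRFs) are transcription factors that share a DNA-binding domain and a preference for GAAA-rich promoter elements. The 8 family members described here, IRF1, IRF2, IRF3, IRF4, IRF5, IRF7, IRF8 and IRF9, were taken by gene symbol from a table of 46427 genes. No measured value enters this rule, but the family was chosen with earlier results of these data known. Their messages were followed in SNU638, a human line established from gastric cancer, with either a control vector or a YTHDF1 vector. Each vector had 2 libraries, which the labels call biological replicates and number 1 and 2. Below, control 1, control 2, YTHDF1 1 and YTHDF1 2 name the 4 libraries by vector and replicate number. All 4 libraries came from cells that were kept without serum for 24 h and then given IFN-γ at 10 ng/ml, so no untreated cells enter any comparison. The labels give 8 h of IFN-γ, while the paper's legends give a longer time. YTHDF1 is a cytoplasmic protein that reads N6-methyladenosine (m6A), a methyl mark on messenger RNA, and the study asked whether an excess of it alters the response to IFN-γ. Its methods describe plasmid transfection in general terms, and neither they nor the labels name the promoter of the vector or say whether the cells were a clone.

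In the textbook pathway, IFN-γ binds its receptor and JAK kinases phosphorylate STAT proteins. These then bind the gamma-activated site (GAS) of early target genes, of which IRF1 is the best known, and newly made IRF1 protein switches on later genes through the interferon-stimulated response element (ISRE). IRF9 joins STAT proteins in the complex ISGF3, which binds the same element. IRF3 and IRF7 are switched on by phosphorylation after nucleic acid sensing and drive interferon genes, while IRF4, IRF5 and IRF8 are best known from blood cells.

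The promoter elements through which the family is wired can be read in the RefSeq promoter table of GRCh38.p14, which holds 250 bases before and 50 bases after each gene start. GAS was searched as TTCNNNGAA, ISRE as a pair of GAAA runs with 2 bases of any kind between them and a shorter IRF core as GAAANNGAA, on both strands, and every ISRE match also holds an IRF core match. Across 35116 promoters, GAS letters stood in 7.66%, ISRE letters in 3.57% and IRF core letters in 8.11%. Of the members in the table (IRF1, IRF4, IRF5, IRF8 and IRF9), IRF1 and IRF9 held GAS letters. They are shown because GAS is the element that answers first to IFN-γ. The sequences are the 250 bases before the start on the gene's own strand, 5′ to 3′, with the GAS letters in capitals, for IRF1 at chr5:132490774-132491023 (minus strand) and for IRF9 at chr14:24161015-24161264 (plus strand).
IRF1: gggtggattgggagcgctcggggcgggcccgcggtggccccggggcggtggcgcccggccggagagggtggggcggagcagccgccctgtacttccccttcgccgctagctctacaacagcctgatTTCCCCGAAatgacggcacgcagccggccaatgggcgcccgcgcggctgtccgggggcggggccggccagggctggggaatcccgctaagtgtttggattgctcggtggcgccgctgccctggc
IRF9: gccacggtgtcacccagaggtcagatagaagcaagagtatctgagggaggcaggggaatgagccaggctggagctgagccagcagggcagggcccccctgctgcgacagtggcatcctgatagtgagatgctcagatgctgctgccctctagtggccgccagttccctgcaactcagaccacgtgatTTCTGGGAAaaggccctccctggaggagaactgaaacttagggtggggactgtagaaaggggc
The IRF1 match begins 124 bases before the start and the IRF9 match 63 bases before it. An IRF5 promoter held the IRF core letters 4 bases before its start. ISRE letters stood in none of the IRF promoters searched, and none of the 3 motifs in those of IRF4 and IRF8. The IRF8 entries begin at chr16:85902580 and chr16:85902765, inside the gene, which GENCODE v29 starts at 85898803. The IRF5 entries, the first from chr7:128937677, also begin inside their gene, which GENCODE v29 starts at 128937612. The bases before these GENCODE starts of IRF8 and IRF5 were therefore not searched. For IRF9, GENCODE v29 starts the gene at 24161053, within the stretch shown, and the GAS match lies after that position. These are matches of letters and not measured binding.

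The authors deposited read counts per gene. Counts are given below with CPM, counts scaled to library sizes that the TMM method had corrected. The libraries held 57398137 to 60864942 counts, and 17781 genes passed a filter on low counts and were tested, all 8 IRF genes among them. YTHDF1 itself had 82.2 and 80.3 CPM in control 1 and 2 and 16494.5 and 2628 CPM in YTHDF1 1 and 2, so every comparison of vectors sets control against a pair of libraries with unequal overexpression. Before the results, a feature of the libraries must be stated: those with the same replicate number resembled each other, whatever the vector. In the test of replicate number 2 against 1, 26.2% of the genes tested were called, against 0% in the test of YTHDF1 against control. Neither the labels nor the paper say what the number stands for. A gene is called here when its log2 fold change is 0.5 or more in either direction and its Benjamini-Hochberg adjusted p over all genes tested, from edgeR's quasi-likelihood test, is under 0.05. Markers of the labelled cell type were present, with EPCAM, KRT8, KRT18 and KRT19 at 13802 counts or more in every library, and the summed level of 6 epithelial markers was 3917 to 6720 CPM. CLDN4, another of them, had 3269 and 3332 counts in replicates 1 but 53 and 60 in replicates 2. CDH1, the remaining marker, had 3141 and 3025 counts in replicates 1 and 1967 and 2117 in replicates 2. Between the numbers 2 of the 6 were called higher and 2 lower, beside 9.96% and 16.2% of all genes tested.

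IRF1 was by far the most abundant family member. It is the early activator of antigen presentation genes, and lies at chr5:132481609-132490798 on the minus strand (GENCODE v29, GRCh38; NCBI Gene ID 3659). It had 48333 counts (813.0 CPM) in control 1, 59225 (1044 CPM) in control 2, 49000 (832.2 CPM) in YTHDF1 1 and 65068 (1078 CPM) in YTHDF1 2. Both vectors were lower in replicate 1 and higher in replicate 2, and the vectors overlapped. The means were 928.6 ± 163.5 CPM in control and 955.0 ± 173.6 CPM in YTHDF1 (SD, n = 2 each). The log2 fold change of YTHDF1 over control was 0.04 (SE 0.21, 95% interval −0.57 to 0.66), with an adjusted p of 1.00 from edgeR's quasi-likelihood test. Within replicate 1 the YTHDF1 library was higher by 0.034 on the log2 scale and within replicate 2 by 0.046. IRF1 was thus called in neither direction, and its interval also holds a change of 0.5 either way. Between the replicate numbers IRF1 differed, with 822.6 ± 13.6 CPM in replicate 1 and 1061 ± 23.7 CPM in replicate 2 (SD, n = 2 each), a log2 fold change of 0.37 (SE 0.047, adjusted p = 0.000215 by the quasi-likelihood test). This is 1.29-fold, past the p threshold but below the fold threshold of a call.

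IRF2 mostly represses the promoters that IRF1 activates, by holding the same elements. The gene spans chr4:184387713-184474580 on the minus strand (NCBI Gene ID 3660). Its counts were 3835 and 5085 in control 1 and 2 and 3834 and 5213 in YTHDF1 1 and 2, or 64.5, 89.7, 65.1 and 86.3 CPM. Again the libraries sorted by replicate number, and those of replicate 1 had nearly equal counts. The vector difference was −0.03 on the log2 scale (SE 0.24, 95% interval −0.73 to 0.67, adjusted p = 1.00 by edgeR). The replicate difference was 0.44 (SE 0.044, adjusted p = 4.80e-05 by edgeR), or 1.36-fold. IRF1 had 12.6 counts per IRF2 count in control 1, 11.6 in control 2, 12.8 in YTHDF1 1 and 12.5 in YTHDF1 2. This ratio needs no scaling of the libraries. Its log2 value differed by 0.06 between the vectors (two-sided exact permutation p = 0.667) and by −0.07 between the replicate numbers (exact permutation p = 0.333). With 2 libraries against 2, this test cannot give a p below 0.333. With 1 library left out in turn, the difference ran from 0.0031 (without control 2) to 0.117 (without control 1) between the vectors, and from −0.124 (without YTHDF1 2) to −0.024 (without control 2) between the numbers.

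**Figure D1:**
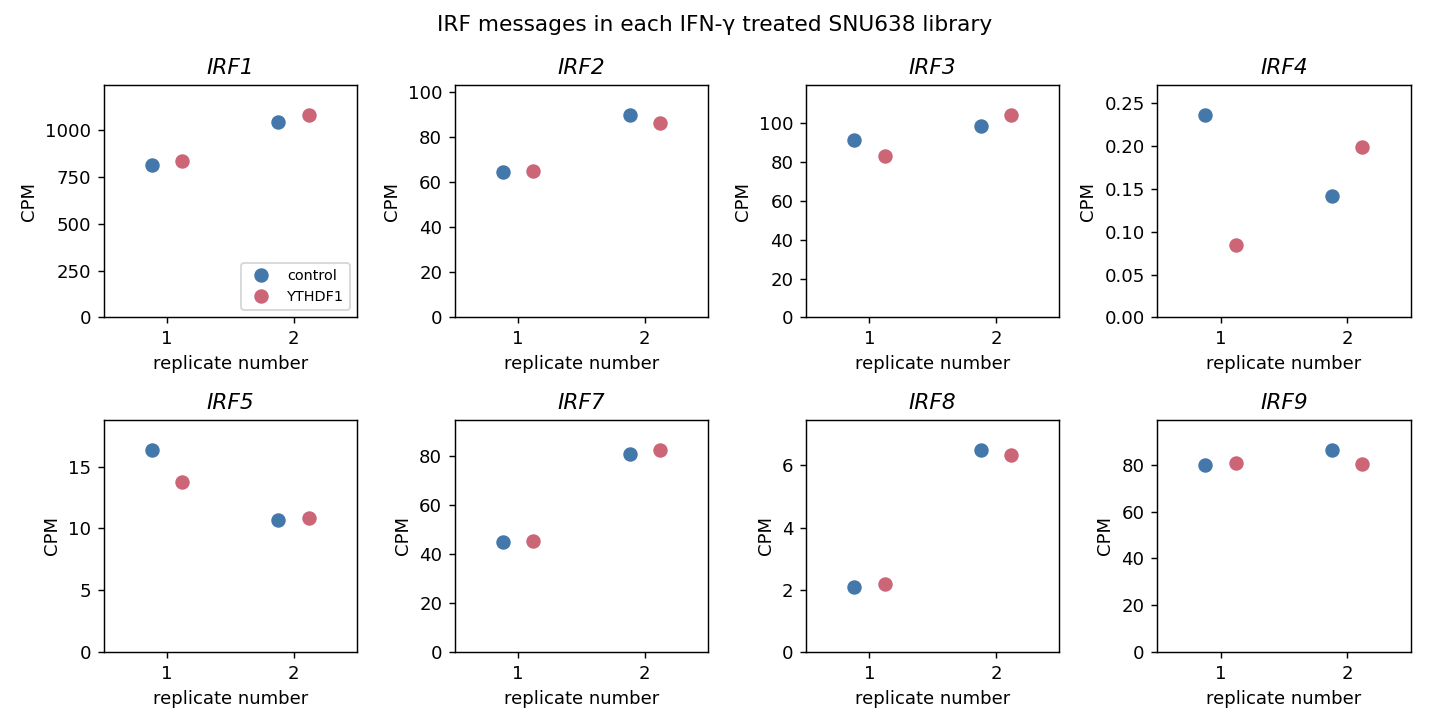
CPM of each IRF gene (vertical axis, linear and starting at 0, with its own range in each panel) by replicate number (horizontal axis), with 1 point per library in blue for control and red for YTHDF1. IRF1, IRF2, IRF7 and IRF8 are higher in replicate 2 with both vectors, IRF5 is lower, and in IRF1, IRF2, IRF7 and IRF8 the points of both vectors lie near each other within a number. IRF4 had at most 14 counts in a library.

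IRF9, the DNA-binding part of ISGF3, was the steadiest of the 8. It lies at chr14:24161053-24166565 on the plus strand (NCBI Gene ID 10379), and GENCODE v29 also lists a same-strand read-through gene that covers all of it. Its counts were 4751, 4893, 4766 and 4845 in control 1 and 2 and YTHDF1 1 and 2, or 79.9, 86.3, 80.9 and 80.2 CPM. The highest library was only 1.08 times the lowest, and neither the vectors nor the replicate numbers were separated. The vector difference was −0.04 on the log2 scale (SE 0.083, 95% interval −0.28 to 0.20), so for this gene the interval left out changes of 0.5. The replicate difference was 0.05 (SE 0.048, adjusted p = 0.418 by edgeR).

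IRF3 is made at all times and waits in the cytoplasm for phosphorylation. The gene lies at chr19:49659569-49665875 on the minus strand (NCBI Gene ID 3661). It had 90.9 and 98.3 CPM in control 1 and 2 (5404 and 5577 counts) and 83.0 and 103.7 CPM in YTHDF1 1 and 2 (4889 and 6263 counts). The YTHDF1 library was the lower of the pair in replicate 1 and the higher in replicate 2, with log2 differences of −0.13 and 0.08. Over all 4 libraries the vector difference was −0.02 (SE 0.15, 95% interval −0.44 to 0.40). In replicate 2 it was higher by 0.22 on the log2 scale (SE 0.054, adjusted p = 0.0089 by edgeR), or 1.16-fold. Without the library YTHDF1 2 this was 0.18 and no longer past the p threshold (95% interval −0.0012 to 0.36, adjusted p = 0.108 by edgeR).

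IRF7 is strongly induced by type I interferon, and it amplifies interferon output. It lies at chr11:612553-615999 on the minus strand (NCBI Gene ID 3665). In control it had 44.9 CPM in replicate 1 and 80.8 CPM in replicate 2, from 2671 and 4582 counts. With YTHDF1 it had 45.1 and 82.3 CPM, from 2655 and 4966 counts. The vectors were nearly equal within each number, while the numbers stood far apart. The vector difference was 0.02 on the log2 scale, with a wide interval (SE 0.45, 95% interval −1.29 to 1.32), since the spread between the replicates enters it. The replicate difference was 0.86 (SE 0.044, adjusted p = 8.66e-07 by edgeR), or 1.81-fold, which is a call.

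IRF5 was the only member whose fitted level was lower in replicate 2. It is known for inflammatory cytokine induction in myeloid cells, and lies at chr7:128937612-128950035 on the plus strand (NCBI Gene ID 3663). Its counts were 971 and 606 in control 1 and 2 and 809 and 654 in YTHDF1 1 and 2, or 16.3, 10.7, 13.7 and 10.8 CPM. Both libraries of replicate 1 lay above both of replicate 2. It was 1.40-fold lower there, with a log2 fold change of −0.48 (SE 0.10, adjusted p = 0.0036 by edgeR). This value stood just inside the fold threshold of 0.5, and that of IRF2 at 0.44 was the next below it, so neither was a call. Without the library YTHDF1 1, IRF5 became a call at −0.60 (adjusted p = 0.000797 by edgeR). The vector difference was −0.14 (SE 0.30, 95% interval −1.01 to 0.74), with −0.25 within replicate 1 and 0.02 within replicate 2.

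IRF8 and IRF4 are closely related and act in lymphoid and myeloid cells, often with the partner SPI1 (PU.1). IRF8 is at chr16:85898803-85922609 on the plus strand (NCBI Gene ID 3394) and IRF4 at chr6:391739-411447, also on the plus strand (NCBI Gene ID 3662). IRF8 had 125 and 368 counts in control 1 and 2 (2.10 and 6.49 CPM) and 129 and 383 counts in YTHDF1 1 and 2 (2.19 and 6.34 CPM). This was the widest separation by replicate number in the family, 2.99-fold, with a log2 fold change of 1.58 (SE 0.14, adjusted p = 2.58e-05 by edgeR), and it was a call. The vector difference was −0.01 on the log2 scale, with a 95% interval of −2.44 to 2.43. IRF4 was close to absent, with 14 and 8 counts in control 1 and 2 and 5 and 12 counts in YTHDF1 1 and 2. It overlapped between vectors and between numbers, and its vector difference of −0.40 (SE 0.79, 95% interval −2.68 to 1.88) rests on these few counts. Its replicate difference was 0.09 (SE 0.66, adjusted p = 0.925 by edgeR).

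Since IRF4 and IRF8 are known from blood cells, 11 blood cell markers were read beside them. Their summed level was 1.56 to 3.67 CPM. MS4A1 and FCGR3A had 0 counts in all 4 libraries, CD3E at most 2 and PTPRC at most 11, and SPI1 had 9 to 18. Most of the sum came from the myeloid markers ITGAM, with 118 and 74 counts in control 1 and 2 and 77 and 46 in YTHDF1 1 and 2, and CD14, with 15 to 41. At 1.98 CPM in control 1, ITGAM was near the 2.10 CPM of IRF8 there. The sum was 3.67 and 2.34 CPM in control 1 and 2 and 2.31 and 1.56 CPM in YTHDF1 1 and 2, lower in replicate 2 with both vectors, whereas IRF8 was higher there. In bulk RNA, fewer cells of a type and less RNA per cell cannot be told apart.

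Set in order by level per transcript length (CPM per kb of the matched RefSeq transcript, the median length where several matched), IRF1 led with 263.1 on average (227 to 301 over the 4 libraries). IRF3 followed with 84.2 (74.3 to 92.9), and IRF9 with 44.5 (43.5 to 46.9). IRF2 at 33.2 (28.0 to 38.9) and IRF7 at 32.0 (22.8 to 41.7) overlapped and were the 1 pair of neighbours in this order that did not separate. IRF5 had 5.13 (4.25 to 6.49), IRF8 1.41 (0.694 to 2.14) and IRF4 0.031 (0.0159 to 0.0442). The step from IRF2 and IRF7 down to IRF5 was 6.25-fold and that from IRF8 to IRF4 45.6-fold. In CPM without regard to length, 99.5% of the tested genes lay below IRF1 and 2.11% below IRF4. The IRF3 value depends on which of its 7 matched transcripts gives the length.

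**Figure D2:**
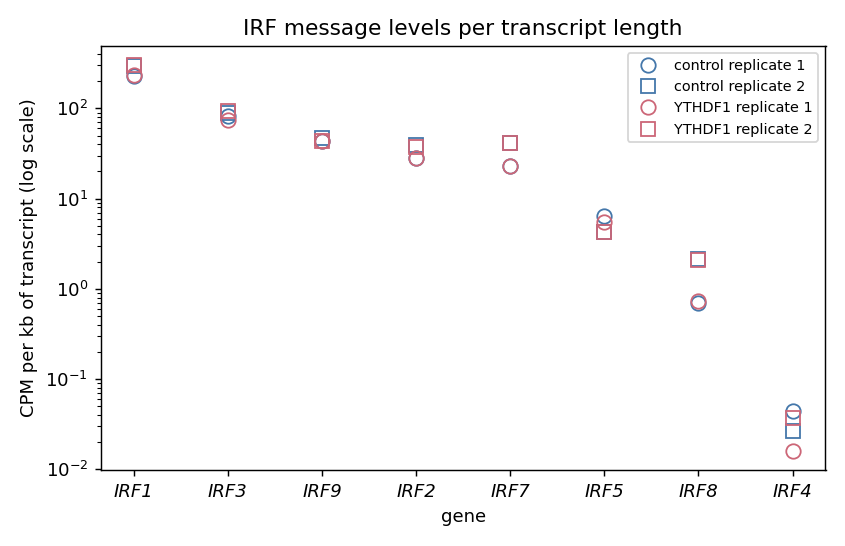
Level of each IRF gene in CPM per kb of transcript (vertical axis, log scale), ordered by the mean, with circles for replicate 1 and squares for replicate 2, blue for control and red for YTHDF1. IRF1 lies between 227 and 301 and IRF4 below 0.05, and the symbols of IRF2 and IRF7 share a range.

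Side by side, the comparison of vectors called 0 of the 8 members, and 0 had an unadjusted p under 0.05, against 0.135% of all genes tested. Among all genes tested it called 0% at the adjusted threshold and 0.101% (18 genes) at an unadjusted p under 0.05 with the same fold, while DESeq2's Wald test called 3 genes at the adjusted threshold, no IRF among them. The edgeR test did not call YTHDF1 itself (log2 fold change 6.88, SE 1.20, adjusted p = 1.00 by edgeR), so 0 calls do not show that no member changed. The vectors overlapped in all 8 members, whereas they did not overlap in 11.5% of all genes tested. Their median log2 difference was −0.02, against 0.0046 over all genes tested, and 2 of 8 had the same sign within both numbers, against 50.4% of all genes. The comparison of replicate numbers called 2 of 8, IRF7 and IRF8, both higher, where 9.96% of all genes were called higher and 16.2% lower. Without the fold threshold, 6 of 8 had an adjusted p under 0.05, of which 5 were higher in replicate 2 and 1 was lower, against 52.6% of all genes (23.6% higher, 29.1% lower). The numbers did not overlap in 6 of 8 members, against 77.1% of all genes tested, so this share is near that of the whole table. In 6 of 8 the sign was the same with both vectors, against 83.7% of all genes. The median log2 difference of the members was 0.29, against −0.01 over all genes. For IRF1, the replicate difference was 9.09 times the size of the vector difference, for IRF2 17.3 times, for IRF3 11.5 times and for IRF7 45.9 times. For IRF5 it was 3.53 times and for IRF9 1.13 times, so that both differences of IRF9 were of like size. In IRF8 it was 169 times a vector difference close to 0. IRF4 was the only member with the larger value between the vectors.

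**Figure D3:**
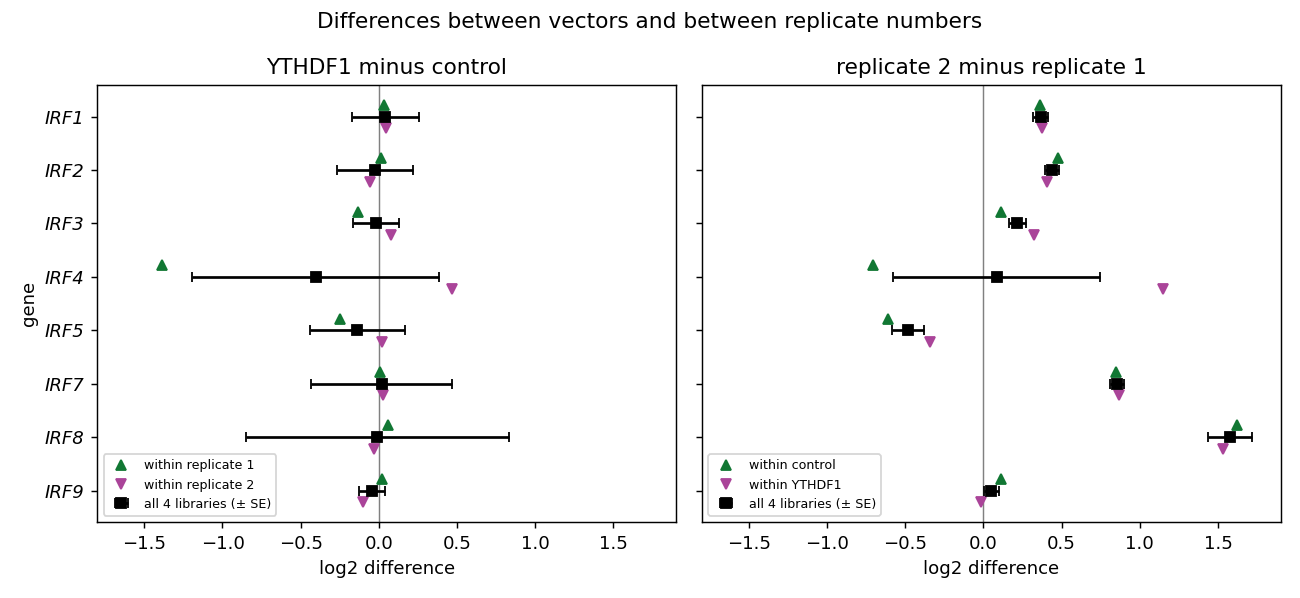
Log2 difference (horizontal axis) of each IRF gene between YTHDF1 and control on the left and between replicate numbers 2 and 1 on the right. Squares with bars are the fit over all 4 libraries ± SE, and triangles are differences of log2 CPM within 1 replicate number (left) or 1 vector (right). On the left, every square apart from IRF4 and IRF5 lies within 0.05 of 0, and on the right IRF7 and IRF8 lie at 0.86 and 1.58.

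Because the counting's strand setting is not given in the sources used here, reads of overlapping genes may have been shared. IRF1-AS1 (listed as C5orf56 in GENCODE v29) overlaps IRF1 on the other strand by 7094 bases. It had 377 and 515 counts in control 1 and 2 and 378 and 550 in YTHDF1 1 and 2, which is 0.771% to 0.870% of the IRF1 counts. This antisense RNA was also higher in replicate 2, with a log2 difference of 0.51 between the numbers (SE 0.10, adjusted p = 0.00296 by edgeR) and 0.01 between the vectors. GENCODE v29 also lists a protein-coding gene, AC116366.3, on the other strand along all 9190 bases of IRF1. No counts of AC116366.3 are given here. BCL2L12, a gene of the BCL2 family, overlaps IRF3 by 734 bases on the other strand and had 23.7% to 40.7% as many counts. It went the other way from IRF3 between the numbers, with a log2 difference of −0.42 (adjusted p = 0.000355 by edgeR). The part of shared reads in the values of IRF1 and IRF3 was not tested.

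YTHDF1 reads m6A, which is placed on the motif DRACH, of which GGACT in the DNA alphabet is a common form. GGACT was counted on the sense strand of the longest matched transcript of each member and set against 18928 protein-coding genes, whose median was 0.938 sites per kb. IRF9 held 6 sites or 3.26 per kb, at or above 98.8% of genes. IRF3 held 3 (1.86 per kb), IRF1 held 6 (1.68 per kb, at or above 83.3% of genes), and IRF2 held 3 (1.30 per kb). IRF4 had 1.13, IRF5 0.669, IRF7 0.488 and IRF8 0.330 per kb. The member richest in these letters, IRF9, and the poorest, IRF8, both had vector differences within 0.05 of 0 on the log2 scale. In the fit without a replicate term the 95% interval of IRF8 was −2.44 to 2.43, so its value near 0 says little there. With the replicate number as a term the interval was −0.345 to 0.361. A relation between these letters and the vector differences was not tested. A match of letters is not a measured methylation.

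The genes around the family were followed as lists. From the IFN-γ receptor to STAT, 11 of 11 genes were tested and 0 were called between the vectors, with a median log2 difference of 0.0034. Between the numbers 2 of 11 were called, both higher in replicate 2, beside 26.2% of all genes called and 9.96% called higher, and the list's median was 0.20. The kinase JAK2 had 79.9 and 83.3 CPM in replicates 1 and 124.7 and 127.2 CPM in replicates 2, a log2 difference of 0.63 (adjusted p = 4.40e-06 by edgeR). The 2 smallest p between the vectors were those of IFNGR2, a receptor chain (log2 difference 0.07), and PIAS1, an inhibitor of STAT signalling (−0.06), both with an adjusted p of 1.00 by edgeR.

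Of the 16 activators of IRF3 and IRF7, 0 were called between the vectors (median 0.0073), and the smallest p were those of CHUK (0.07) and IKBKB (0.05), kinases of the NF-κB pathway. Between the numbers 1 was called higher and 4 lower, beside 9.96% and 16.2% of all genes tested (median −0.06, with 8 of 16 above 0). CGAS, which senses cytosolic DNA, was higher by 1.19 on the log2 scale in replicate 2 (adjusted p = 3.92e-07 by edgeR). STING1, the adaptor that carries the CGAS signal to IRF3, had 9.25 and 9.65 CPM in replicates 1 but 0.176 and 0.199 CPM in replicates 2, from 10 and 12 counts. Its log2 difference was −5.64 (adjusted p = 7.66e-08 by edgeR). So the sensor was higher and its adaptor nearly undetected in the same libraries. Also lower, and named only after their values were known, were the RNA sensor IFIH1 (−1.11), the ubiquitin ligase TRAF3 (−0.91) and the adaptor MAVS (−0.54).

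Of 13 partners and co-repressors of IRF proteins, 12 were tested and 0 were called between the vectors (median −0.02). The smallest p there were those of SPI1, with −0.81 on 9 to 18 counts, and IRF2BP1, an IRF2 co-repressor, with −0.13. Between the numbers 0 were called higher and 4 lower, beside 9.96% and 16.2% of all genes tested (median −0.22, with 4 of 12 above 0). IRF2BPL, a relative of that co-repressor, had 64.5 and 63.1 CPM in replicates 1 and 25.7 and 26.7 CPM in replicates 2, a log2 difference of −1.28 (adjusted p = 2.02e-07 by edgeR). EP300, an acetyltransferase that IRF proteins recruit, differed by −0.79. SPIB (−1.46) and BATF3 (−0.82), named once their values were known, are lymphoid and dendritic cell factors at under 4 CPM.

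The 25 genes known as IRF1 targets gave 0 calls between the vectors, with a median log2 difference of −0.02 and 10 of 25 higher. The smallest p were those of IL15 at 0.23 (unadjusted p = 0.235 by edgeR) and CASP1 at −0.23, neither of them a call. Summed over the list, the level was 6282 CPM in control 1 and 6328 CPM in YTHDF1 1, but 9257 CPM in control 2 and 9295 CPM in YTHDF1 2. The vectors were thus close within a number. Between the numbers 14 of 25 were called higher and 1 lower, beside 9.96% and 16.2% of all genes, and the median was 0.60. GBP1, an interferon-induced GTPase, had 69.4 and 67.1 CPM in replicates 1 and 215.0 and 206.2 CPM in replicates 2, a log2 difference of 1.63 (adjusted p = 1.57e-08 by edgeR). GBP4, a relative of GBP1, was higher by 1.53 (adjusted p = 9.16e-09 by edgeR).

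The 24 genes known as IRF9 (ISGF3) targets also gave 0 calls between the vectors (median −0.01), and the smallest p were those of IFIT2 (0.07) and ISG15 (0.04). In replicate 2, 11 were called higher and 3 lower, beside 9.96% and 16.2% of all genes tested, with a median of 0.35. OAS2, an antiviral enzyme, had 51.5 and 52.6 CPM in replicates 1 and 139.6 and 135.6 CPM in replicates 2, a log2 difference of 1.40 (adjusted p = 3.65e-08 by edgeR). BST2, which tethers virus particles to the cell surface, was higher by 1.06 (adjusted p = 1.10e-07 by edgeR). Lower, and named only after their values were known, were HERC5 (−2.84), OASL (−0.76) and SAMD9 (−0.62), also interferon-induced. IRF9 itself overlapped between the numbers.

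ISRE letters were found in the promoters of 15 of the 18 IRF1 targets in the RefSeq promoter table and of 17 of the 19 IRF9 targets there, against 4.38% of all genes in the table. The lists hold genes known to answer to these factors, so this describes how they were composed. The stretches below, from the targets named above for the replicate comparison, show the element with 10 bases on either side on the gene's own strand, the ISRE letters in capitals (read on the other strand, GAAA becomes TTTC). They lie at chr1:89065316-89065345 for GBP1, chr1:89198927-89198956 for GBP4 and chr19:17405741-17405770 for BST2 in GRCh38.p14, all on the minus strand.
GBP1: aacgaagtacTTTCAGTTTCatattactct
GBP4: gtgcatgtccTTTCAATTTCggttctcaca
BST2: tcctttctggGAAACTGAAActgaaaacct
The marked matches begin 127, 4 and 130 bases before the start of GBP1, GBP4 and BST2. In BST2 a second match begins 124 bases before the start. It overlaps the marked one, and its end is left in lower case. OAS2, also named for that comparison, has no entry in the RefSeq promoter table, so its promoter was not searched. The 3 genes were named for their small p between the replicate numbers, so their being higher in replicates 2 is no separate result. HERC5 and SAMD9, named above as lower there, held ISRE letters too. Whether the element bears on these differences was not tested. None of the 3 differed between the vectors by more than 0.06 on the log2 scale.

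**Figure D4:**
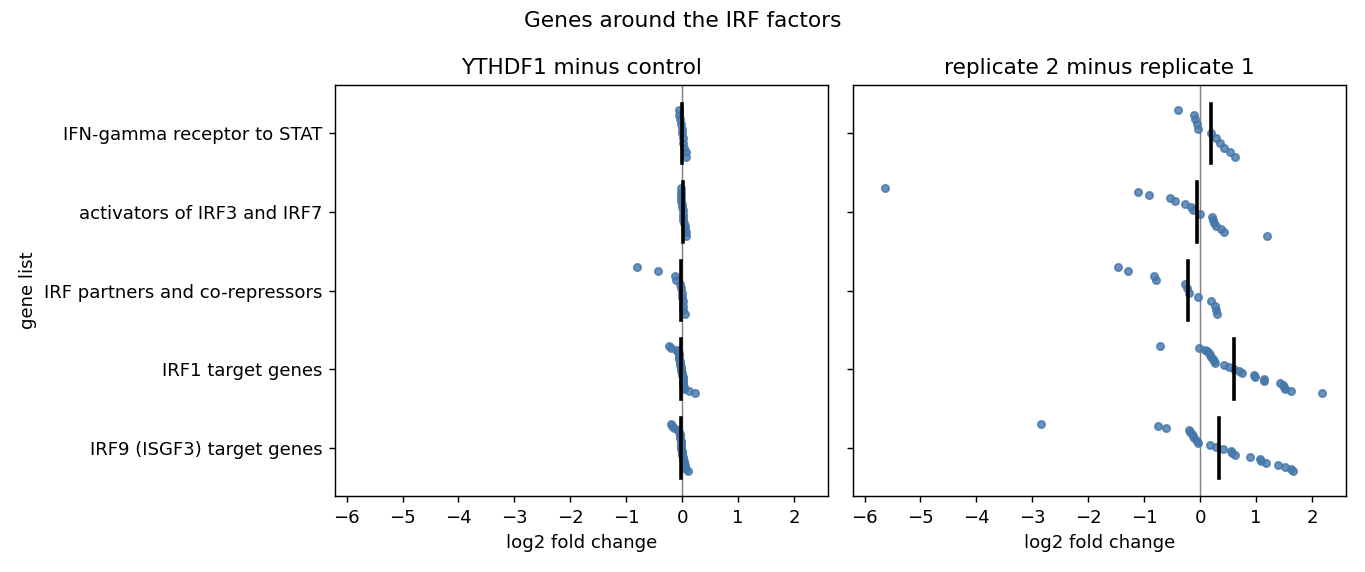
Log2 fold change (horizontal axis) of every tested gene of the 5 lists named on the vertical axis, between vectors on the left and between replicate numbers on the right, with 1 point per gene and a black bar at the list's median. On the left all points but those of SPI1 and SPIB lie within 0.25 of 0, while on the right the IRF1 targets have a median of 0.60 and STING1 lies at −5.64.

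Interferon genes, among them outputs of IRF3 and IRF7, were nearly silent. Of 10 genes, 4 had 0 counts in all libraries and 4 were tested, and IFNB1 had 2 to 6 counts. IFNL1, a type III interferon, had 14 and 50 counts in control 1 and 2 and 22 and 49 in YTHDF1 1 and 2. It was called higher in replicate 2 (log2 difference 1.47, adjusted p = 0.00836 by edgeR), as was the epithelial interferon IFNE (0.87), and 0 were called between the vectors. IFNL2 (0.56) and IFNL3 (0.23) had the smallest p there, on at most 25 counts, and are near-identical copies whose reads may have been split.

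Among 77 listed genes with at least 10 CPM on average, those whose pattern over the 4 libraries lay nearest to IRF1 were IFIT3, SOCS3 and TRAF6. The measure was the root mean square distance of log2 CPM after centring each gene, which was 0.0336, 0.0349 and 0.0388. IFIT3, an ISGF3 target, had 11687 and 15099 counts in control 1 and 2 and 11776 and 15843 in YTHDF1 1 and 2. SOCS3, a feedback inhibitor of JAK kinases, had 4218, 5324, 4557 and 5738 counts in the same order. With 4 libraries that fall into pairs by replicate number, likeness of this kind is shared by many genes.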

How the data were processed

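Messenger RNA of SNU638 cells was sequenced from stranded poly(A) libraries, with 2 control vector and 2 YTHDF1 vector libraries. The authors deposited counts, whole numbers of reads per gene without normalization, for 46427 genes by symbol and NCBI Gene ID. The submitters' processing notes name Trimmomatic, HISAT2 and GRCh38; the counting tool, its strand setting and the annotation are not given in the sources used here. Reads that map to several genes could raise or lower members with close neighbours.

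Tests were run in R 4.3.3, in edgeR 4.0.16 (filterByExpr, TMM scaling, quasi-likelihood test) with limma 3.58.1, and p-values were adjusted by the Benjamini-Hochberg method over 17781 genes. A gene was called when its adjusted p was under 0.05 and its log2 fold change 0.5 or more in either direction, the paper's fold threshold. The standard error was taken as the absolute log2 fold change divided by √F, and differences within a number or a vector are of log2 CPM with a prior count of 0.5. The vectors were compared without a replicate term, and the replicate numbers 2 and 1 were compared in the same way. Total counts were 57398137 to 60864942 per library, and no molecular identifiers were used. The intervals given for log2 fold changes come from the quasi-likelihood fit, so the spread between libraries enters them. The bound on counts given for IRF4 covers counting error only. The 2 libraries of each vector differed well beyond counting noise (chi-square over its degrees of freedom 136 for control, 167 for YTHDF1), so each was kept as a sample. Nothing says how the cultures were separated, so p-values measure the spread between these samples.

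The members, the lists and the tests were chosen with earlier results of these data known. Named were all members, YTHDF1, the 2 genes of each list with the smallest p in either comparison, and the 3 genes nearest IRF1; some listed genes are not reported here. Lists were written from general knowledge. Positions come from GENCODE v29 and sequences from RefSeq tables. The alternatives were DESeq2 1.42.0 size factors or its Wald test, limma-voom, other filters, YTHDF1 left out, the replicate number as a term, and each library left out. The procedure was tested on simulated data. Python 3.11.15 and matplotlib 3.10.9 drew the figures.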

Additional observations from a re-analysis of the deposited data

How the results depend on the processing

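The comparison of vectors called 0 members under every alternative run, while it called 18 genes (4 higher, 14 lower) at an unadjusted p, 3 with DESeq2's Wald test and 8 with the replicate number as a block, which also called YTHDF1 (adjusted p = 0.0022 by edgeR). The labels share replicate numbers but do not say what they mark, so the main fit did not treat same-numbered libraries as pairs. The spread between the numbers therefore enters its intervals between vectors. Deviations of same-numbered libraries from their group means correlated with r = 0.875 across 17781 genes. With this block IRF1 had a log2 fold change of 0.04 (SE 0.040, 95% interval −0.05 to 0.13, adjusted p = 0.999 by edgeR) and IRF8 one of 0.0080, which changed sign, as did IRF8 with limma-voom (0.028). The other 53 values of members between vectors kept their direction and side of the threshold. All 55 between replicate numbers did so too. At any fold the numbers differed in 6 members and 9358 genes.

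With each library left out in turn, the vectors gave 0 genes and 0 members, and the numbers gave 4190 to 4332 genes and 2 to 3 members, IRF5 being the added one without YTHDF1 replicate 1 (−0.60). IRF3 lost its adjusted p under 0.05 without YTHDF1 replicate 2 (0.108). The remaining libraries are unbalanced in replicate number, and the lone library is assumed to vary like the others. The vector log2 fold changes then ran from −0.17 to 0.23 for IRF1, −0.25 to 0.23 for IRF2, −0.20 to 0.13 for IRF3, −1.14 to 0.078 for IRF4, −0.41 to 0.20 for IRF5, −0.49 to 0.50 for IRF7, −0.98 to 1.02 for IRF8 and −0.098 to 0.011 for IRF9. Between the numbers IRF4 ran from −0.46 to 0.99. The log2 ratio of IRF1 to IRF2 ran from 0.0031 to 0.117 between the vectors and from −0.124 to −0.024 between the numbers. IRF4 has no value with at least 10 counts asked of every library. Depth limits IRF4, which had 5 to 14 counts in a library. A count of 0, which IRF4 had in no library, would allow up to 3 counts.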
